A study of Mus musculus with 10 samples.

Results

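Glycolysis turns glucose into pyruvate in the cytosol. Hexokinase traps glucose as a phosphate, phosphofructokinase commits it to the pathway, aldolase splits the sugar, and phosphoglycerate kinase and pyruvate kinase harvest ATP. Lactate dehydrogenase then interconverts pyruvate and lactate. In the ovarian follicle the work is divided between cells: the mouse oocyte uses glucose poorly and takes up pyruvate that the surrounding cumulus granulosa cells make, and factors secreted by the oocyte are known to raise glycolytic transcripts in those cells. The genes described here are 10 glycolytic enzymes, Hk1, Gpi1, Pfkl, Pfkm, Pfkp, Aldoa, Pgk1, Eno1, Pkm and Ldha, chosen by gene symbol. They matched 11 of the 22891 genes in the deposited table, because the symbol Aldoa belongs to 2 Ensembl genes.

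The RNA-seq libraries are of whole ovaries taken at 3 weeks of age, 5 labelled Uba3 cKO and 5 labelled control, all of the C57/Bl6/N;129SvEv7 strain. UBA3 is the catalytic component of the NEDD8-activating enzyme, which starts the attachment of this ubiquitin-like protein to its targets. The labels of the Uba3 cKO group give neither the Cre driver, nor the deleted exons, nor the cells that lost the gene, and those of the controls give no allele. Whether each ovary is from its own mouse is not stated, and the tests therefore measure the spread between libraries, which may be in part technical.

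The values are normalized log2 levels, and the depth behind them is unknown. Library medians lay between 6.29 and 6.44. Uba3 itself stood at 10.12 ± 0.069 in Uba3 cKO ovaries and 10.12 ± 0.18 in control ovaries (SD, n = 5 each), so its whole-organ level did not check the labels. Ovarian markers were present in both groups: the granulosa list of 16 genes averaged 12.66 in Uba3 cKO ovaries and 12.61 in controls, and the oocyte list of 21 genes averaged 9.85 in Uba3 cKO ovaries and 9.88 in controls. The oocyte mean varied between libraries, from 9.35 to 10.14 in Uba3 cKO ovaries and from 9.57 to 10.20 in controls. Of 8 skeletal muscle markers found, 5 were below the filter on low values, among them Ckm at 1.86 and Acta1 at 0.87, and the other 3 were Actn3 at 6.35, Mylpf at 5.00 and Myh2 at 4.01. Control replicate 3 stood apart from the rest: the slope of its deviations on log2 transcript length was -0.17, against -0.074 to 0.070 in the other 9 libraries. Several results that rest on it are therefore given with and without it. The phosphofructokinase shares and the search for genes of like pattern are given with it only.

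Promoter sequences are shown for Pgk1 and Ldha, which had the most negative r with the oocyte markers over all 10 libraries (-0.83 and -0.75), and for Gpi1, as a window without the motif marked here. The order depends on control replicate 3: without it r was -0.81 for Pgk1, -0.73 for Ldha, -0.74 for Gpi1 and -0.87 for Aldoa, so the windows do not contrast enzymes that follow the oocyte markers with one that does not. Each is a window of 300 bases from RefSeq on GRCm38.p6, from 250 bases before to 50 bases after a transcript start, written 5′ to 3′ on the gene's strand. The windows are chrX:106186850-106187149 on the plus strand for Pgk1, chr7:46845554-46845853 on the plus strand for Ldha (the upstream of its 2 listed starts) and chr7:34230287-34230586 on the minus strand for Gpi1. Capitals mark ACGTG on either strand, the core of the sequence that hypoxia-inducible factors bind, which overlaps the E-box CACGTG.
Pgk1: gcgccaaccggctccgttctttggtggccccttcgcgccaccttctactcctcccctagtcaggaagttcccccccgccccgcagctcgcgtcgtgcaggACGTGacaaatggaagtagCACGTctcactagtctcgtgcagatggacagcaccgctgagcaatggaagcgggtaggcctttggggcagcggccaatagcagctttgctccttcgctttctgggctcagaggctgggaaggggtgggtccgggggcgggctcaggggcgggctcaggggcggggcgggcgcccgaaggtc
Ldha: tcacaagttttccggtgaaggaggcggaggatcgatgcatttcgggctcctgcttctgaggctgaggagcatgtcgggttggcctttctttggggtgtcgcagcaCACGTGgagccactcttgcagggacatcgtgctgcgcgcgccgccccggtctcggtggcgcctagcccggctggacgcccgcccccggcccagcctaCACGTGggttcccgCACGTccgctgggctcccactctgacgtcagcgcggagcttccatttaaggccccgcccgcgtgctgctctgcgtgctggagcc
Gpi1: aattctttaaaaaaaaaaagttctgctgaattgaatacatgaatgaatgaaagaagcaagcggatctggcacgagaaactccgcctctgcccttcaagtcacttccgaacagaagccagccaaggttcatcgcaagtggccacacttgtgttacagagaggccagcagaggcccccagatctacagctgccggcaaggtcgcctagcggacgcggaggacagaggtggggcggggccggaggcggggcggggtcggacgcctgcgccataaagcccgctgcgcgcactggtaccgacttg
The Pgk1 window held 2 such matches, beginning 150 and 131 bases before the start. Ldha held 5 that overlap within 3 stretches, 2 of them full E-boxes beginning 145 and 48 bases before the start, and Gpi1 held 0. Over all 20 listed starts of the 10 genes, 8 windows in 6 genes (Hk1, Pfkm, Aldoa, Pgk1, Pkm and Ldha) held ACGTG, against 19.6% of 32851 promoters of the same length. The other form of the core, GCGTG, was found in 10 of the 20 windows and in 32.4% of all promoters. The full E-box CACGTG was in 2 of the 20 and in 7.15% of all. The GC box GGGCGG was found in 10 of the 20 windows and in 35.7% of all promoters, while TATAAA was in 0 of the 20 and in 13.6% of all. Several genes have overlapping windows, so the 20 windows are not independent, and a match to letters is not a bound site. The promoters compared were not matched for GC content, which ran from 36.7% to 69.0% in the 20 windows.

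Divided by the length of the longest coding transcript, Aldoa was the most abundant enzyme over the 10 libraries, at 12.67 on the log2 scale per kb, followed by Ldha at 12.30. Eno1 at 11.98 and Pkm at 11.95 came next and did not differ beyond their spread. Pgk1 at 11.10, Gpi1 at 10.63, Pfkl at 9.51 and Pfkm at 8.16 followed, and the lowest were Pfkp at 7.40 and Hk1 at 7.15, which again did not differ beyond the spread of their difference between libraries. The enzymes of the lower pathway thus stood above those that trap and commit glucose. With merged exon length in place of the longest coding transcript, Eno1 came below Pkm and Pgk1, to 10.57 against 10.91 and 10.80, and Hk1 came above Pfkp, at 6.15 against 5.70. Without regard to length, 6 of the 10 genes (Gpi1, Aldoa, Pgk1, Eno1, Pkm and Ldha) lay above 95.9% of the 15629 genes tested.

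**Figure D1:**
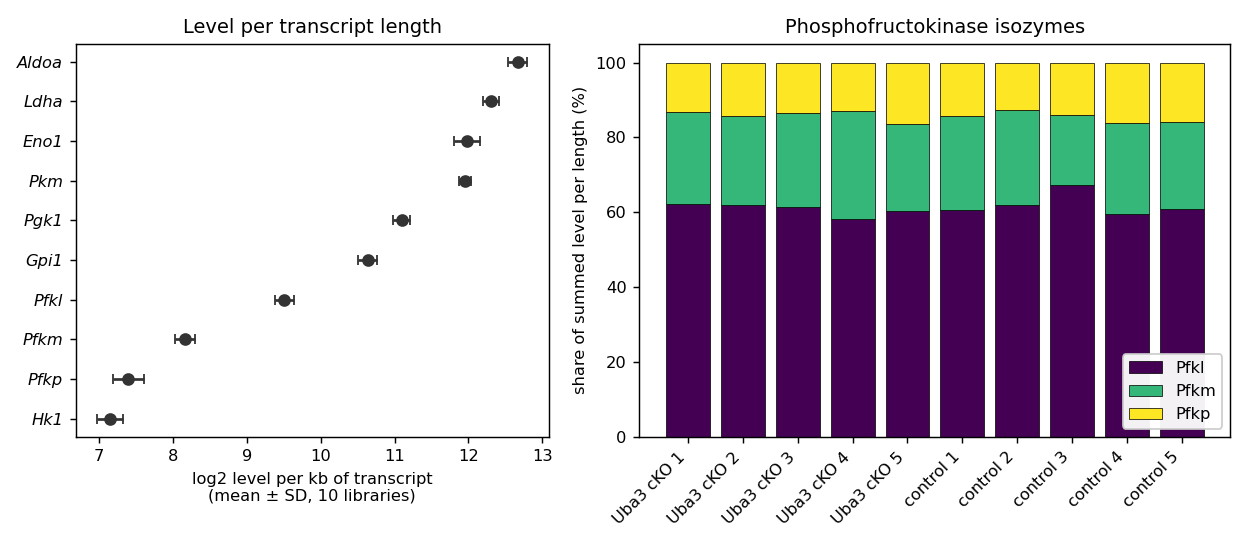
Left, log2 level per kb of longest coding transcript for each enzyme (points, mean; bars, SD over 10 libraries). Right, share of the summed level per length of longest coding transcript taken by each phosphofructokinase isozyme in each library. Pfkl takes 58.2% to 67.3% by this length.

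None of the enzymes changed beyond the spread between ovaries. By limma with Benjamini-Hochberg adjustment over 15629 genes, 0 of the 10 enzymes passed 0.05 (adjusted p = 1 for each), where 0.0% of all genes were called. At an unadjusted p under 0.05 there were also 0 of the 10, where 1.79% of all genes were, 0.973% higher in Uba3 cKO ovaries. The groups overlapped in each of the 10 genes, against no overlap in 0.32% of all genes. The mean was higher in Uba3 cKO ovaries for 4 enzymes and lower for 6, with a median log2 difference of -0.045, beside 50.2% of all genes with the higher mean and a median of 0.00034. The 95% intervals bound each of the 10 differences within -0.32 and 0.29, which is 0.802-fold to 1.22-fold for the whole organ. A change confined to a small share of the cells would not be bounded in this way, and in whole ovaries fewer cells of a type and less RNA per cell cannot be told apart.

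**Figure D2:**
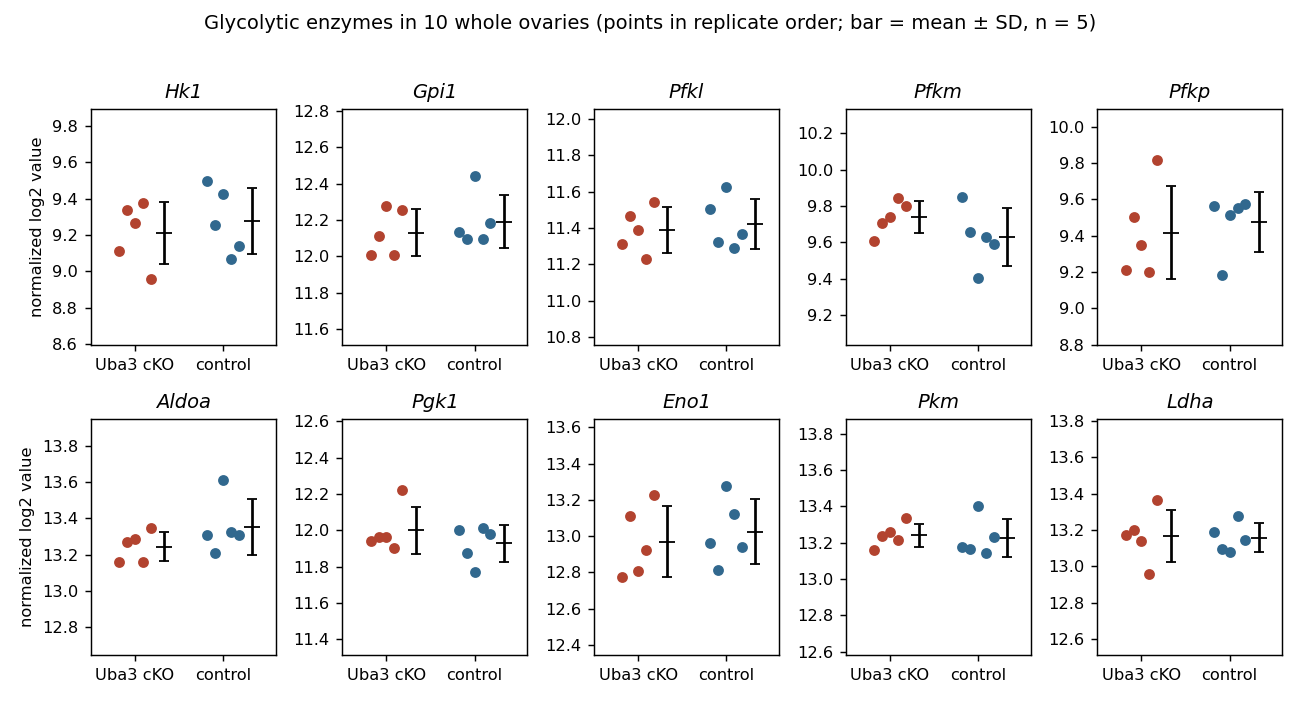
Normalized log2 level of the 10 enzymes in each ovary, Uba3 cKO left of control, in replicate order; black bars give mean ± SD (n = 5). The axes all have the same span, and the groups overlap in every panel.

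Entry of glucose was compared first. Hk1, the hexokinase bound to the outer mitochondrial membrane, stood at 9.11, 9.34, 9.27, 9.37 and 8.96 in Uba3 cKO ovaries and at 9.49, 9.25, 9.42, 9.07 and 9.14 in control ovaries. The lowest value belonged to Uba3 cKO replicate 5 and the highest to control replicate 1, and the log2 difference was -0.066 (standard error 0.10). Gpi1, which isomerizes the glucose phosphate to the fructose form, stood at 12.13 ± 0.13 in Uba3 cKO ovaries and 12.19 ± 0.15 in control ovaries (SD, n = 5 each). Control replicate 3 was its highest library at 12.44, against 12.01 to 12.28 elsewhere, and the difference of -0.059 became 0.0042 without that library.

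Commitment by phosphofructokinase rests on 3 genes whose products mix in one tetramer, named for liver, muscle and platelet. Pfkl, the liver type, stood at 11.39 ± 0.13 in Uba3 cKO ovaries and 11.42 ± 0.14 in control ovaries (SD, n = 5 each), a difference of -0.034 that became 0.017 without control replicate 3. Pfkm, the muscle type, stood at 9.61, 9.71, 9.74, 9.84 and 9.80 in Uba3 cKO ovaries and at 9.85, 9.66, 9.41, 9.63 and 9.59 in control ovaries. Its groups overlapped fully, with both the highest and the lowest library among the controls. The difference of 0.11 (standard error 0.081) was the largest positive one of the 10 enzymes, and without control replicate 3 it was 0.056. Pfkp, the platelet type and one of the transcripts known to respond to the oocyte in cumulus cells, stood at 9.21, 9.50, 9.35, 9.20 and 9.82 in Uba3 cKO ovaries and at 9.56, 9.19, 9.51, 9.55 and 9.57 in control ovaries. It was the most variable enzyme, with a 1.55-fold range over the 10 libraries, and differed by -0.061 (standard error 0.12). Exons of Pfkp overlap those of Pitrm1 on the opposite strand over 748 bases in GENCODE M21. Pitrm1 had a mean level of 11.20, and the sources used here do not say how reads in the overlap were counted.

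Per transcript length Pfkl made up 60.8% ± 1.6 of the summed phosphofructokinase level in Uba3 cKO ovaries and 62.1% ± 3.0 in control ovaries (SD, n = 5 each; exact two-sided permutation p = 0.492). Pfkm made up 25.2% ± 2.2 in Uba3 cKO ovaries and 23.3% ± 2.7 in controls, and Pfkp 14.01% ± 1.4 in Uba3 cKO ovaries and 14.6% ± 1.4 in controls. Control replicate 3 had the highest Pfkl share, 67.3%, and the lowest Pfkm share, 18.7%. With merged exon length the control means were 58.5% for Pfkl, 33.9% for Pfkm and 7.604% for Pfkp. The Pfkl share then ran from 53.0% to 64.7% over the libraries. The size of the shares, above all of Pfkm and Pfkp, thus depends on the length used.

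Splitting of the sugar falls to Aldoa. Its main gene (ENSMUSG00000030695) stood at 13.16, 13.27, 13.28, 13.16 and 13.35 in Uba3 cKO ovaries and at 13.31, 13.21, 13.61, 13.32 and 13.31 in control ovaries. Control replicate 3 lay above all other libraries, and the 5 Uba3 cKO values lay in the lower part of the control range or close below it. The log2 difference was -0.11 (standard error 0.081), the largest negative one of the 10, and it was -0.042 without control replicate 3. The other gene of that symbol (ENSMUSG00000114515), a neighbour on the same strand, was low at 4.96 ± 0.14 in Uba3 cKO ovaries and 4.95 ± 0.075 in controls (SD, n = 5 each). It too passed the filter on low values and was not called.

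The ATP-yielding part of the pathway was as close in level. Pgk1, the first ATP-yielding kinase and an X-linked gene, stood at 11.94, 11.96, 11.96, 11.90 and 12.22 in Uba3 cKO ovaries and at 11.998, 11.88, 11.77, 12.01 and 11.98 in control ovaries. Uba3 cKO replicate 5 lay above the other 9 libraries, which lay between 11.77 and 12.01, and the difference was 0.070 (standard error 0.074). It was 0.014 without Uba3 cKO replicate 5 and 0.031 without control replicate 3. Eno1, the enolase that forms phosphoenolpyruvate, stood at 12.97 ± 0.195 in Uba3 cKO ovaries and 13.02 ± 0.18 in control ovaries (SD, n = 5 each). Its difference of -0.056 became 0.0077 without control replicate 3. Pkm, the pyruvate kinase of most tissues other than liver and red cells, varied least, with a 1.20-fold range, and stood at 13.24 ± 0.064 in Uba3 cKO ovaries and 13.22 ± 0.11 in controls (SD, n = 5 each). A gene-level value does not separate its M1 and M2 splice forms.

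Ldha, the lactate dehydrogenase subunit typical of glycolytic tissue, stood at 13.17, 13.20, 13.14, 12.96 and 13.36 in Uba3 cKO ovaries and at 13.19, 13.10, 13.08, 13.28 and 13.15 in control ovaries. The Uba3 cKO group held both its highest library, replicate 5, and its lowest, replicate 4. The difference was 0.0082 (standard error 0.078, 95% interval from -0.16 to 0.18).

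**Figure D3:**
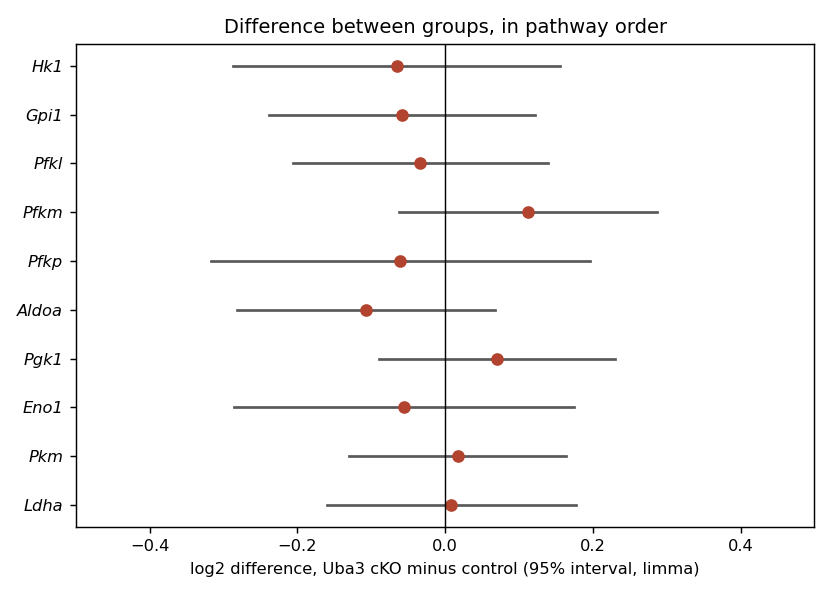
Log2 difference of each enzyme, Uba3 cKO minus control (points), with its 95% interval from limma (lines), in pathway order. All 10 intervals span 0, and Pfkm at 0.11 and Aldoa at -0.11 lie farthest from it.

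Near-identical copies limit some of these values. At 95% identity over at least 200 bases, transcripts of Eno1 matched 3 other genes, among them the retrogene Eno1b with 99.5% identity and a level of 7.86. Pgk1 and Ldha each matched 4 processed pseudogenes, and of these only Gm5452, a copy of Ldha, was in the table, at 0.88. The Pgk1 copies Pgk1-rs7 and Gm5537 had 100% identity over 1255 and 1252 bases. Pkm matched 2 other genes, Gm6560 with 98.4% identity over 1593 bases and a level of 4.07, and Gm49759 at 5.74. Gpi1 matched Gm1840 with 98.7% identity over 1046 bases and a level of 2.93. Exons of Gm49759 overlap those of Pkm on the same strand over 767 bases. Those of Gm26513, at 1.43, overlap Pfkm on the same strand over 341 bases. How reads in such overlaps, or reads that match several places, were counted is not given in the sources used here. The values of these genes are therefore uncertain.

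Within-library differences between isozymes of a step were compared between the groups in 7 pairs, and none differed by an exact two-sided permutation test, whose smallest possible p here is 0.00794. The smallest p was 0.262 for Pfkm minus Pfkp, at 0.32 ± 0.25 in Uba3 cKO ovaries and 0.15 ± 0.23 in controls (SD, n = 5 each), and every p adjusted over the 7 pairs was 0.952. Hk1 and Hk2, the insulin-responsive hexokinase of muscle and fat, had nearly equal values, with Hk1 minus Hk2 at 0.024 ± 0.045 in Uba3 cKO ovaries and 0.069 ± 0.24 in controls (SD, n = 5 each). Aldoa exceeded the brain-type Aldoc by 6.45 log2 units in Uba3 cKO ovaries and 6.46 in controls, and Eno1 exceeded the neuronal Eno2 by 9.14 in Uba3 cKO ovaries and 9.05 in controls. Ldha lay below Ldhb, the subunit typical of heart, by values of -0.28 ± 0.28 in Uba3 cKO ovaries and -0.29 ± 0.26 in controls (SD, n = 5 each). Per transcript length Ldhb exceeded Ldha by 1.70-fold over the 10 libraries, and with merged exon length by 2.57-fold. Hk1 was 1.33-fold of Hk2 per transcript length and 0.722-fold with merged exon length, so which of them was higher depends on the length used.

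In each of the 10 enzymes the SD within groups was larger than the difference between the group means. Uba3 cKO replicate 5 was the highest library for Pfkp, Pgk1 and Ldha, was above the mean for 9 of the 10 enzymes, and was the lowest for Hk1. Control replicate 3 was the highest for Gpi1, Pfkl, Aldoa, Eno1 and Pkm and the lowest for Pfkm and Pgk1. Uba3 cKO replicate 1 and control replicate 2 were each above the mean for only 1 of the 10. The mean level of the 10 enzymes lay between 11.55 and 11.79 among Uba3 cKO ovaries and between 11.57 and 11.76 among controls.

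**Figure D4:**
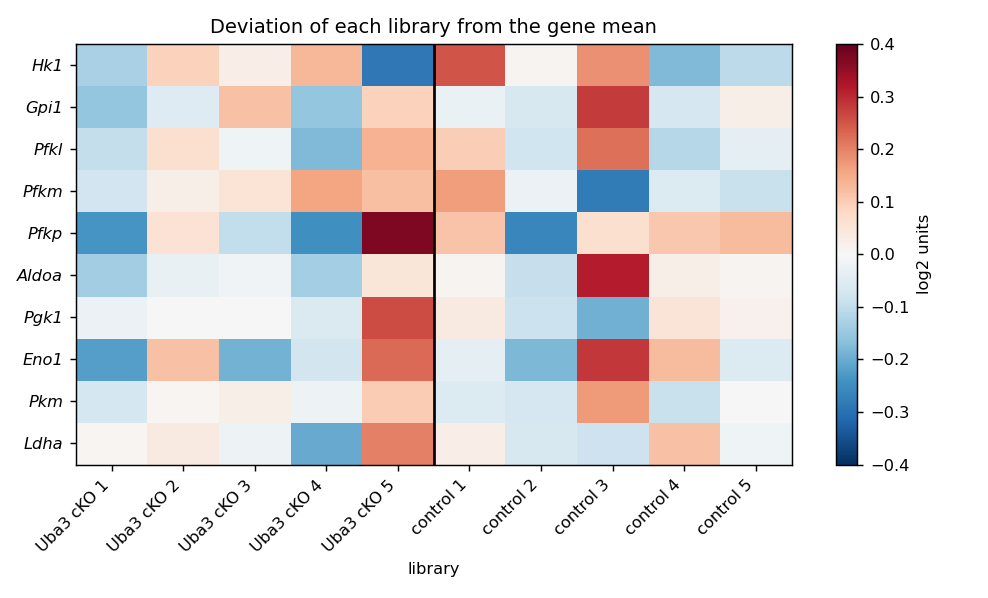
Deviation of each library (columns, Uba3 cKO left of control) from the mean of each enzyme (rows), in log2 units; red is above and blue below the mean. Uba3 cKO replicate 5 is above the mean for 9 of 10 enzymes and control replicate 3 splits them, high for Gpi1, Pfkl, Aldoa, Eno1 and Pkm and low for Pfkm and Pgk1.

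Of the 45 pairs of enzymes, 33 had a positive and 12 a negative correlation over the 10 libraries, with a median Pearson r of 0.19, and 5 pairs passed adjustment over the 45 by a permutation test of r. These were Gpi1 with Aldoa (Pearson r = 0.90, Spearman rho = 0.71), Gpi1 with Pkm (0.86 and 0.81), Pfkl with Aldoa (0.80 and 0.67), Gpi1 with Pfkl (0.79 and 0.85) and Aldoa with Eno1 (0.76 and 0.85). Permutation p for r lay between 0.00069 and 0.00535, and the adjusted permutation p was 0.0481 for Gpi1 with Pfkl and 0.0303 for each of the other pairs. By Spearman's rho 0 pairs passed adjustment, the smallest adjusted permutation p being 0.0675. Without the 2 libraries farthest from the median of the first gene of each pair, r was 0.86, 0.69, 0.57, 0.76 and 0.57 in that order. All 5 pairs have control replicate 3 at the high end, and without it their r was 0.76, 0.70, 0.67, 0.64 and 0.67. Leaving it out raised the median r of the 45 pairs to 0.51. Libraries share their normalization and their mix of cells, and the part of either in these relations was not tested. No share was taken over pairs of other genes, so the counts do not show that the enzymes vary together more than other genes.

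Pgk1 was lower in the libraries with a higher mean of oocyte markers. Over the 10 libraries its level ran against the mean of the 21 oocyte markers with a Pearson r of -0.83 (permutation p = 7e-05) and a Spearman rho of -0.96 (permutation p = 3e-05). After adjustment over the 30 relations of 10 enzymes to 3 marker means the permutation p was 0.0021 for r and 0.0009 for rho, and this was the only relation of the 30 that passed. Among the 9207 genes with a level of at least 8, 0.967% had an r as low, and 2.79% had one as far from 0 in either direction. Leaving out Uba3 cKO replicate 5 and control replicate 1, the libraries farthest from the median of the oocyte mean, r was -0.72 (exact permutation p = 0.0367, adjusted p = 0.885). The sign thus held without those libraries and the call did not. The test then also had fewer libraries, and the part of that in the lost call was not tested. Ldha had r = -0.75 and rho = -0.73 (permutation p = 0.00758 and 0.0201, adjusted p = 0.0914 and 0.206), and r = -0.59 without the same libraries. Pfkp had r = -0.70 and rho = -0.70 (permutation p = 0.0255 and 0.0299, adjusted p = 0.191 and 0.206), with r = -0.45 without those libraries and -0.80 without control replicate 3. Of the same 9207 genes, 6.70% had an r at least as far from 0 as that of Ldha, and 9.88% as that of Pfkp. Uba3 cKO replicate 5, with the lowest oocyte mean, also had the lowest median of all genes, 6.29. Uba3 cKO replicate 4 and control replicate 2, with oocyte means of 10.14 and 10.16, had medians of 6.44. Control replicate 3, with the highest oocyte mean, had a median of 6.41. The part of such library-wide differences in the relations to the oocyte mean was not tested.

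Several of these relations depended on control replicate 3. The r of Aldoa with the oocyte mean was -0.10 over all 10 libraries and -0.87 without control replicate 3 (exact permutation p = 0.0022, adjusted p = 0.033), a comparison added after the values were seen. Without that library r was -0.74 for Gpi1, against -0.19 with it, -0.61 for Pfkl, against -0.22, -0.56 for Eno1, against -0.23, and -0.45 for Pkm, against -0.020, and none of these passed adjustment. Pfkm ran with the granulosa mean (r = 0.76, rho = 0.72, permutation p = 0.00914 and 0.0241, adjusted p = 0.0914 and 0.206), and Hk1 with the stroma mean (r = 0.64, rho = 0.50, permutation p = 0.0485 and 0.145, adjusted p = 0.291 and 0.522). Neither passed, and without the 2 libraries farthest from the median of the marker mean r was 0.57 for Pfkm and 0.60 for Hk1. Among the 9207 genes, 7.91% had an r with the granulosa mean at least as far from 0 as Pfkm. For Hk1 and the stroma mean the share was 7.94%. Each group alone has 5 libraries, too few for a relation within it.

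The balance of lactate dehydrogenase subunits followed the oocyte markers more closely than the other 6 isozyme pairs did. Ldha minus Ldhb stood at -0.49, -0.23, -0.28, -0.55 and 0.15 in Uba3 cKO ovaries and at -0.12, -0.38, -0.67, -0.00077 and -0.29 in control ovaries. Only Uba3 cKO replicate 5, which had the lowest oocyte mean, had more Ldha than Ldhb on this scale, and control replicate 3, which had the highest, lay at the other end. The relation had r = -0.89 and rho = -0.90 (permutation p = 0.00041 and 0.00082, adjusted over 7 pairs p = 0.00287 and 0.00574). Leaving out Uba3 cKO replicate 5 and control replicate 1, r was -0.80 (exact permutation p = 0.0145, adjusted p = 0.102), and without control replicate 3 it was -0.88. Pfkl minus Pfkp ran with the oocyte mean (r = 0.74, rho = 0.87, permutation p = 0.019 and 0.00244, adjusted p = 0.0664 and 0.00854) and passed by rho alone. Without the same 2 libraries its r was 0.67 (exact permutation p = 0.0615, adjusted p = 0.179). Against the oocyte mean Ldhb alone had r = 0.85 and Ldha alone r = -0.75, so the relation of their balance is not separate from these. The 7 relations of balances were added after the values were seen, and no share was taken over pairs of other genes.

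**Figure D5:**
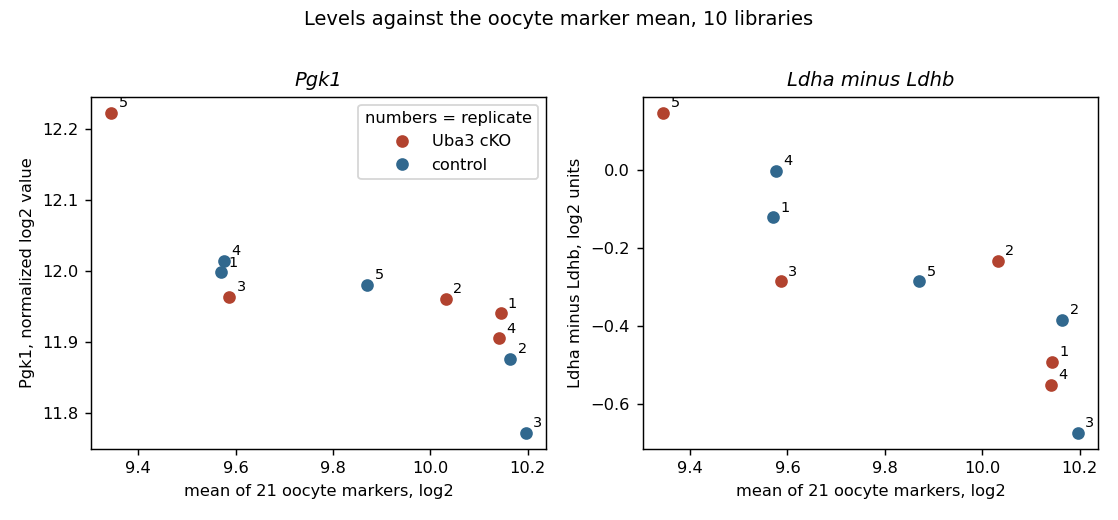
Pgk1 level (left) and Ldha minus Ldhb (right) against the mean of 21 oocyte markers, all in log2 units; each point is a library, numbered by replicate. Both measures are highest in Uba3 cKO replicate 5 and lowest in control replicate 3, with Uba3 cKO and control libraries interleaved.

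Genes outside the set whose pattern was most like that of the enzymes were sought among 9197 genes with a level of at least 8, by Pearson r over the 10 libraries. The mean of the 10 enzymes was most like Ehd1 (0.93), Itga3 (0.90), Wiz (0.89), Sf3b2 (0.88) and Sec31a (0.87). For single enzymes the closest were Abcf1 for Aldoa (0.98), Hsd3b1, a steroid-making enzyme, for Pfkm (0.98), Hnrnpr for Pgk1 (0.94), Paqr7 for Gpi1 (0.94), Eefsec for Pkm (0.94), Anxa6 for Hk1 (0.94), Lmf1 for Pfkl (0.93), Mapkap1 for Ldha (0.93), Toe1 for Pfkp (0.92) and Hcn2 for Eno1 (0.91). The next closest were Shmt2, Vps26b, Rps6ka2, Abcf1, 2810025M15Rik, Col16a1, Nfkb2, Ahsa2, B3galt5 and Ehd1 in the same order, with r between 0.88 and 0.96. These values describe likeness over 10 libraries only, and no test was made of them.

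Other glycolytic isozymes and steps gave 0 called genes among 13 tested, 4 with the higher mean in Uba3 cKO ovaries and 9 with the lower, with a median difference of -0.015. The smallest p belonged to Eno2, at 3.83 ± 0.12 in Uba3 cKO ovaries and 3.97 ± 0.14 in controls, and to the sperm-type Gapdhs, at 3.49 ± 0.076 in Uba3 cKO ovaries and 3.40 ± 0.081 in controls (SD, n = 5 each). Glucose and lactate carriers gave 0 of 10, with a median of 0.043, and the smallest p for Slc2a8, at 7.88 ± 0.12 in Uba3 cKO ovaries and 7.96 ± 0.14 in controls (SD, n = 5 each). Slc16a1, the monocarboxylate carrier for lactate and pyruvate, stood at 11.72 ± 0.15 in Uba3 cKO ovaries and 11.65 ± 0.13 in controls (SD, n = 5 each).

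Regulators of flux gave 0 of 14, with a median of -0.0013. Tigar stood at 8.77 ± 0.17 in Uba3 cKO ovaries and 8.64 ± 0.11 in controls, and Pdk4, a kinase that shuts pyruvate dehydrogenase, at 8.65 ± 0.37 in Uba3 cKO ovaries and 8.89 ± 0.25 in controls (SD, n = 5 each). Branches to the pentose phosphate, glycogen, glycerol and hexosamine routes gave 0 of 25, with a median of 0.019, and the smallest p for Fbp2, a gluconeogenic phosphatase, at 4.52 ± 0.15 in Uba3 cKO ovaries and 4.33 ± 0.17 in controls (SD, n = 5 each). Gpd1l, related to glycerol phosphate dehydrogenase, stood at 9.90 ± 0.064 in Uba3 cKO ovaries and 9.81 ± 0.056 in controls.

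The transcription factors that act on glycolytic genes and their regulators gave 0 of 17, with a median of -0.0027. Myc stood at 10.86 ± 0.34 in Uba3 cKO ovaries and 11.08 ± 0.27 in controls, and Mycl at 14.12 ± 0.11 in Uba3 cKO ovaries and 13.98 ± 0.25 in controls (SD, n = 5 each). Targets of hypoxia-inducible factors outside glycolysis gave 0 of 13, with a median of -0.041, and 1 was at an unadjusted p under 0.05. It was Ankrd37, at 3.67 ± 0.11 in Uba3 cKO ovaries and 3.84 ± 0.080 in controls (SD, n = 5 each; adjusted p = 1 by limma), whose groups overlapped and whose level is near the filter. Mxi1 stood at 9.95 ± 0.16 in Uba3 cKO ovaries and 10.03 ± 0.067 in controls. The smallest adjusted p over these 6 lists was 1 by limma, and 0 of their 92 tested genes had groups without overlap.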

How the data were processed

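The authors deposited 1 normalized value on a log2 scale per gene and library, with a name for each library but none for the transform. The tools fastp, STAR, featureCounts and DESeq2 and the build GRCm39 are named per the submitters' processing notes, with no versions or roles. Values ran from -0.21 to 20.19. The median SD over libraries was 0.085 for genes with means from 2 to 4 and 0.132 for means from 8 to 10, so differences of genes near the filter may be understated. Counts were not recovered, and the depth is unknown.

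Symbols were found for 22188 of 22891 genes. Lengths, overlaps and copies came from GENCODE M21 (GRCm38, not the build in the notes), with blastn 2.17.0 for copies. Genes with a linear mean of at least 10 (3.32 on the log2 scale) entered a limma fit (version 3.58.1, R 4.3.3) that used a mean-variance trend, no covariate and Benjamini-Hochberg adjustment. The fit was also run on simulated data with independent noise for each gene. That simulation held no effects shared by a library, and no result given here rests on it. Single values were compared with exact two-sided permutation tests, and relations over 10 libraries with permutation tests of 100000 resamples. Alternatives were 2 other filters, 2 scalings, no trend, library quality weights, a replicate block, 2 covariates and leaving out each library.

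The enzymes and lists were chosen with earlier results of these data known. Named genes are Uba3, the 10 enzymes, the 2 genes of each list with the smallest p where none passed, and the closest genes by r. Lists were matched by symbol or synonym, and of the 10 skeletal muscle genes 8 were found.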

Additional observations from a re-analysis of the deposited data

Results flagged for a closer look

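Of 38 sets of 5 libraries checked for a library far from the others, 5 held one, and chance flags about 1 set in 20. Among controls, replicate 3 stood alone for Gpi1 at 12.44 (the others 12.10 to 12.19), for Aldoa at 13.61 (13.21 to 13.32) and for Pfkl minus Pfkm at 2.22 (1.65 to 1.77). It is also the library with the steepest slope on transcript length, -0.17, whose part in these values was not tested. Control replicate 2 was low for Pfkp at 9.19, against 9.51 to 9.57 in the other controls. Among Uba3 cKO ovaries, replicate 5 was high for Pgk1 at 12.22, against 11.90 to 11.96 in the others, and it had the lowest oocyte mean of all libraries, 9.35.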

How the results depend on the processing

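Under all 19 alternative settings of the limma fit 0 of the 10 enzymes were called (smallest adjusted p = 0.999), and differences stayed between -0.16 and 0.17. Among all genes 0 were called except for 1 with the length slope as a covariate, a setting added after the data were seen. Hk1, Pfkm, Pfkp, Aldoa and Pgk1 kept their sign throughout, but without 1 library their differences ran from -0.12 to -0.0025 for Hk1, 0.056 to 0.17 for Pfkm, -0.16 to -0.0068 for Pfkp, -0.14 to -0.042 for Aldoa and 0.014 to 0.094 for Pgk1. The smallest were without Uba3 cKO replicate 5 for Hk1 and Pgk1, Uba3 cKO replicate 4 for Pfkp and control replicate 3 for Pfkm and Aldoa. The signs of the other 5 enzymes, all uncalled, did not hold. Library quality weights turned Ldha to -0.012, Pfkl to 0.016 and the second Aldoa gene to -0.0016. Uba3 turned to -0.0020 with median centring, -0.048 with quality weights, -0.0040 with the oocyte covariate and -0.015 with the length slope. Quantile normalization turned Aldoa minus Aldoc to 0.040 and Ldha minus Ldhb to -0.010. Leaving out 1 library, differences ran from -0.12 to 0.0077 for Eno1, -0.096 to 0.0042 for Gpi1, -0.041 to 0.060 for Ldha, -0.073 to 0.017 for Pfkl, -0.0062 to 0.062 for Pkm, -0.016 to 0.071 for the second Aldoa gene and -0.056 to 0.066 for Uba3. Balances ran from -0.058 to 0.033 for Aldoa minus Aldoc, -0.10 to 0.045 for Hk1 minus Hk2, -0.097 to 0.084 for Ldha minus Ldhb and -0.025 to 0.089 for Pfkl minus Pfkp. Filters, trend, weights and covariates were not run for balances. Of relations to marker means, 1 passed over all libraries, 0 without the 2 farthest libraries and 2 (Pgk1 and Aldoa) without control replicate 3; the cause was not tested.

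Same-numbered libraries correlated between -0.34 and 0.32 in their deviations, so the numbers were not taken as pairs. With the replicate block 0 enzymes and 0 genes were called.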

Other observations

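Some glycolytic genes outside the set rose and fell with the oocyte markers over the 10 libraries. Ldhb, the lactate dehydrogenase subunit known to be abundant in mouse oocytes, had r = 0.85 and rho = 0.95 with the oocyte mean (permutation p = 0.00044 and 0.00011, adjusted over 13 genes p = 0.00264 and 0.00143). Bpgm, which makes bisphosphoglycerate in red cells, had r = 0.89 and rho = 0.84 (permutation p = 0.00056 and 0.0036, adjusted p = 0.00264 and 0.0234). Ldhc, the testis-type subunit, had r = 0.90 and rho = 0.81 (permutation p = 0.00061 and 0.0073, adjusted p = 0.00264 and 0.0316). Without Uba3 cKO replicate 5 and control replicate 1, r was 0.75 for Ldhb, 0.87 for Bpgm and 0.83 for Ldhc. The other 10 tested isozymes and steps did not pass, Tpi1 having the smallest permutation p of them for r, 0.0363, with r = -0.65 and rho = -0.42 (adjusted p = 0.118 and 0.458). Some of these depended on control replicate 3. Without it r was -0.90 for Gapdh, against -0.37 with it, -0.84 for Tpi1 and -0.81 for Eno2, against -0.61, and these were not tested. Ldhb, Bpgm and Ldhc had r = 0.87, 0.88 and 0.90 without that library. These relations were chosen after the values were seen. For scale, Pgk1 had an r of -0.83 with the oocyte mean. Among the 9207 genes with a level of at least 8, 2.79% had an r at least as far from 0. The share at the r of Ldhb, Bpgm and Ldhc themselves was not computed.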
